A study of Rattus norvegicus with 6 samples.

Results

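Prostaglandin synthesis and breakdown was followed in rat tendon stem/progenitor cells through 10 genes, chosen by name from the 33300 genes of the deposited table. The list held a cytosolic and a secreted phospholipase that release arachidonic acid (Pla2g4a and Pla2g2a), both cyclooxygenases (Ptgs1 and Ptgs2), the synthases that finish prostaglandin E (Ptges, Ptges2 and Ptges3), prostacyclin (Ptgis) and prostaglandin D (Ptgds), and the enzyme that begins inactivation (Hpgd). Each name had 1 row. The cells were kept for 7 days either with the thiol antioxidant and cysteine donor N-acetyl-L-cysteine (NAC) at 500 uM in F12 medium, giving 3 libraries, or in F12 medium alone (Control), giving another 3. All 6 libraries carry the same labels of tendon tissue, mesenchymal stem cells under cell line, and tenogenic differentiation under genotype; no allele or transgene is named. No label ties a library to a culture or an animal of its own, so p-values measure the spread between these samples, which may be technical.

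Prostaglandins are short-lived lipid signals made on demand. A phospholipase cuts arachidonic acid from membrane lipids, a cyclooxygenase turns it into prostaglandin H, and a terminal synthase sets which prostanoid leaves the cell. Prostaglandin E2 is the prostanoid most studied in tendon, where tendon cells release it under mechanical load and inflammatory cytokines. The inducible cyclooxygenase is a target of anti-inflammatory drugs taken for tendon pain.

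The sequences just upstream of Pla2g2a, a member whose level differed between the groups, and of Ptgs2, the member that varied most between libraries of 1 group, are shown as the 250 bases before the RefSeq gene start, 5′ to 3′ on the gene's strand (build GRCr8, plus strand for both, chr5:156359475-156359724 and chr13:64713813-64714062). Capitals mark matches to any of 8 motifs searched on both strands.
Pla2g2a: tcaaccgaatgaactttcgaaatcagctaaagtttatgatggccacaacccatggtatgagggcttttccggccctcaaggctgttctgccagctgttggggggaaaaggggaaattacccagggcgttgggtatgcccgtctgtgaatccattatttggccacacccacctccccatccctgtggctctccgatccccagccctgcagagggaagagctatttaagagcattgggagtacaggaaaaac
Ptgs2: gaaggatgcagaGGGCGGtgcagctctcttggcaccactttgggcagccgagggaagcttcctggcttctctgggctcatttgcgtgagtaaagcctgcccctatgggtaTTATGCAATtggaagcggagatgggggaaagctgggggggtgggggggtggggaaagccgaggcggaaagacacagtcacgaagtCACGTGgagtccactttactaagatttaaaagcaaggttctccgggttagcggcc
The Ptgs2 window held GGGCGG (an Sp1 site), TTATGCAAT (a match to the C/EBP letters TTNNGCAAT) and CACGTG (an E-box), none of them overlapping. Among 27456 rat promoter windows of the same length, 32.4% held GGGCGG, 2.03% held TTNNGCAAT and 5.79% held CACGTG. The Pla2g2a window held none of the 8, which says only that those letters are absent there. The remaining motifs were the cAMP response element TGACGTCA, held by 1.7% of windows, the AP-1 letters TGANTCA, held by 6.36%, the core promoter box spelled TATAAA, held by 13.1%, the NF-kB consensus (6.42%) and the CArG box (1.5%). RefSeq had such a window for 8 of the 10 members. Ptgis and Ptges2 had no entry. A match is a description of the letters and not of binding.

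Levels are in FPKM, which divides a gene's fragments by its length and by the size of the library and so allows levels to be compared between genes. Whole reads worked back from these values came to between 12487215 and 14941949 per library. Genes with a mean of at least 1 FPKM over the 6 libraries were tested with limma on log2(FPKM + 1), NAC minus Control, with Benjamini-Hochberg adjustment over all 12733 of them and a threshold of 0.05. Fold changes below are on that log2 scale, which understates the change of low genes. Of all tested genes 6.08% were called higher and 2.72% lower with NAC. Control 2 stood apart from the other Control libraries for several members, as given below, and also library-wide. The chi-square of a pair over its degrees of freedom was 9.53 with Control 1 and 9.36 with Control 3. Between Control 1 and Control 3 it was 3.69. Values without Control 2 are printed where they change a call and for some other genes. Control 2 was singled out with these values known. Setting each library to its own read total put the median change of all tested genes at -0.16, against -0.0063 as deposited. The cells expressed the connective tissue genes of their label: Col1a1 averaged 5453 FPKM with NAC and 2731 FPKM in Control, and Dcn 5620.4 and 4489 FPKM. Col1a1, Dcn, Col1a2 and Tnc were the 4 of 13 tendon and mesenchymal markers called higher, and none was lower. The Col1a1 call held in all 17 alternatives. Col1a2 missed the threshold in 10 of them (leave-one-out adjusted p up to 0.135), Tnc in 8 (up to 0.101) and Dcn in 2, with no filter and with quantile normalization (0.048, adjusted p = 0.553). Also in this list the tendon factor Scx stood at 11.6 FPKM with NAC and 12.5 FPKM in Control. Mkx stood at 3.90 and 5.28 FPKM, and Tnmd at 2.55 and 1.41 FPKM. None of these was called (limma adjusted p = 0.519 for Scx, 0.192 for Mkx and 0.0909 for Tnmd). Of 12 macrophage and leukocyte markers, Ptprc, Tyrobp and Cd3e were at 0 in every library, 6 others averaged under 1 FPKM, and Cd14, Lyz2 and Cd68 were tested and not called. That list summed to 25.1 to 26.6 FPKM with NAC and 23.4 to 27.2 FPKM in Control. Mast cell markers summed to 0.181 to 0.573 FPKM with NAC and 0.317 to 0.427 FPKM in Control, with 7 of 8 at 0, and endothelial markers to 0.668 to 0.769 FPKM and 0.368 to 0.750 FPKM, with 3 of 7 at 0. Smooth muscle and pericyte markers, led by Acta2 and Pdgfrb, summed to 446 to 520.3 FPKM with NAC and 541 to 658 FPKM in Control; the muscle myosin Myh11 was the 1 of 7 called lower, a call missed in 7 of 17 alternatives (leave-one-out adjusted p up to 0.0844). The part of this list in the results below was not tested. The skeletal muscle and Schwann lists held 1 tested gene each, Acta1 and S100b, and neither was called. These are bulk samples, in which fewer cells of a type and less RNA per cell cannot be told apart.

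**Figure D1:**
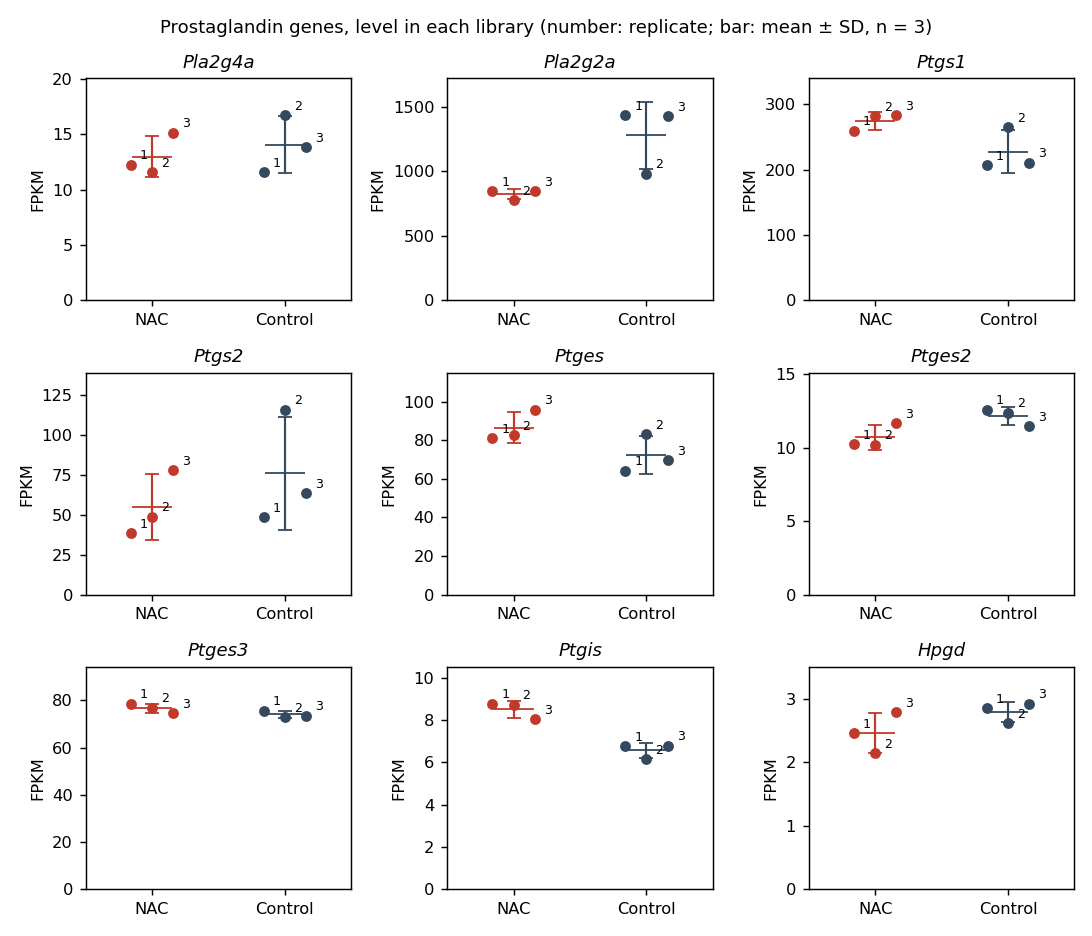
FPKM of the 9 expressed members in each library (points, numbered by replicate), with the mean and SD of the 3 NAC libraries left and the 3 Control libraries right in every panel; each axis starts at 0. Pla2g2a and Ptgis are the members whose NAC and Control points do not overlap, and Control 2 is the highest Control library for Pla2g4a, Ptgs1, Ptgs2 and Ptges.

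With NAC, Pla2g2a fell, Ptgis rose, and the 7 other tested members did not pass the test. Ptgds, at 0 reads, was not tested. Thus 1 of 9 tested members was called higher and 1 lower, against 6.08% and 2.72% of all tested genes. NAC and Control values did not overlap in these same 2 members, as in 32.6% of all tested genes. The median log2 fold change of the 9 was -0.10, against -0.0063 for all tested genes. Both calls were close to the threshold, and values are given below where leaving out a library or another setting ended them. Those settings made fewer or more calls among all tested genes too: 3.63% without Control 1, 3.53% without Control 3, 2.75% without NAC 1, 2.47% without NAC 2, 4.69% without NAC 3, 4.52% with the replicate number as a block, 3.79% with no filter, 9.04% with robust estimation, 5.93% without a mean-variance trend and 2.12% at a threshold of 0.01.

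By level, the secreted phospholipase and the constitutive cyclooxygenase stood far above the rest. Pla2g2a led in all 6 libraries (777 to 1435 FPKM), followed in all 6 by Ptgs1 (207 to 283 FPKM). Ptges (64.2 to 95.8 FPKM), Ptges3 (72.9 to 78.5 FPKM) and Ptgs2 (38.2 to 115.6 FPKM) came next with overlapping ranges, so their order was not fixed. Pla2g4a (11.6 to 16.7 FPKM) and Ptges2 (10.2 to 12.6 FPKM) overlapped as well. Ptgis (6.16 to 8.77 FPKM), Hpgd (2.15 to 2.92 FPKM) and Ptgds followed in that order in all 6 libraries. The reads behind each value ran from 49 for Hpgd in its lowest library to 17822 for Pla2g2a in its highest, so counting error was largest, among the members that were read, for Hpgd.

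The secreted phospholipase was read far above the cytosolic one, and it alone of this pair passed the test; whether their responses differ was not tested. Pla2g2a (ENSRNOG00000016945; chromosome 5, 157282669 to 157285328, plus strand, in the coordinates of the deposited table, for which no rat build is named) encodes the secreted group IIA phospholipase A2, an enzyme of synovial fluid and of acute inflammation. It measured 845, 777 and 847 FPKM in the NAC libraries, against 1435, 982 and 1430.3 FPKM in Control libraries 1, 2 and 3. The NAC libraries lay close together and below every Control library, and Control 2 lay nearer to the NAC libraries than to Control 1 and Control 3. The mean was 823 ± 39.5 FPKM with NAC and 1282 ± 260 FPKM in Control (SD, n = 3 each), a ratio of 0.642, and the log2 fold change was -0.62 ± 0.146 (SE, limma adjusted p = 0.0475). Without Control 2 it was -0.80 (adjusted p = 0.00126). As Control 2 lay between the NAC libraries and the other Control libraries, dropping it was bound to widen the difference. In each of the 5 fits that kept Control 2 and dropped another library, Pla2g2a missed the threshold (-0.64 to -0.53, adjusted p from 0.110 to 0.145). With all 6 libraries it missed it with no filter (adjusted p = 0.103), with robust estimation (0.0714) and without a trend (0.0768).

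Pla2g4a (ENSRNOG00000002657; chromosome 13, 66988937 to 67206693, minus strand) encodes the cytosolic phospholipase A2 that is activated by calcium and prefers arachidonic acid. It measured 12.2, 11.6 and 15.1 FPKM in the NAC libraries, against 11.6, 16.7 and 13.8 FPKM in the Control libraries. The groups overlapped, and the log2 fold change was -0.10 ± 0.144 (limma adjusted p = 0.707), which turned to 0.025 without Control 2. The level of Pla2g2a over that of Pla2g4a was 69.1, 67.2 and 56.0 in the NAC libraries and 124, 58.9 and 103 in the Control libraries, so that Control 2 fell among the NAC libraries.

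The secreted phospholipase has a neighbour that shared its direction. Pla2g5, the group V secreted phospholipase A2, lies 13.8 kb from Pla2g2a on the opposite strand, with 1 small nuclear RNA gene between them in the deposited table. Pla2g5 fell to 4.03 ± 0.0868 FPKM with NAC, against 6.08 ± 0.396 FPKM in Control (SD, n = 3 each; log2 fold change -0.49 ± 0.0702, limma adjusted p = 0.0108). Its call was lost without NAC 2 (-0.49). In Control 2 Pla2g5 measured 5.63 FPKM, near Control 1 and Control 3 (6.21 and 6.39 FPKM). Pla2g2a in Control 2 lay nearer to the NAC libraries. A link to position was not tested. The other group II genes of the same chromosome stretch were scarcely read: Pla2g2e averaged 0.560 FPKM with NAC and 0.551 FPKM in Control, and Pla2g2c, Pla2g2d and Pla2g2f had 0 to 3 reads per library.

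Neither cyclooxygenase passed the test with all 6 libraries. Ptgs1 (ENSRNOG00000007415; chromosome 3, 15560712 to 15582344, plus strand) encodes the cyclooxygenase that most tissues make at a steady level. It measured 259, 282 and 283 FPKM in the NAC libraries, against 207, 265 and 210.4 FPKM in the Control libraries. Control 2 lay within the range of the NAC libraries, and Control 1 and Control 3 lay below all of them. The mean was 275 ± 13.4 FPKM with NAC and 228 ± 32.7 FPKM in Control (SD, n = 3 each), a log2 fold change of 0.28 ± 0.0979 (limma adjusted p = 0.131). Without Control 2 it was 0.39 and passed (adjusted p = 0.00884, the lowest over its alternatives, the highest being 0.405). As Control 2 lay within the NAC range, dropping it was bound to widen the difference. Ptgs1 was not called on dropping any other single library (adjusted p from 0.183 to 0.297). Without Control 2, 6.75% of all tested genes were called higher and 2.73% lower. Ptgs1 was then the member called higher and Pla2g2a the one called lower.

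Ptgs2 (ENSRNOG00000002525; chromosome 13, 67351087 to 67359335, plus strand) encodes the inducible cyclooxygenase, which is switched on within hours by cytokines, growth factors and strain. It measured 38.2, 48.7 and 77.7 FPKM in the NAC libraries, against 48.2, 115.6 and 63.5 FPKM in the Control libraries. The groups overlapped, with NAC 3 above Control 1 and Control 3, and Control 2 the highest of all. The mean was 54.9 ± 20.4 FPKM with NAC and 75.8 ± 35.3 FPKM in Control (SD, n = 3 each), a log2 fold change of -0.42 ± 0.363 (limma adjusted p = 0.505). It was -0.073 without Control 2. Its standard error was the largest among the members, so a moderate difference was not detectable here. Ptgs1 exceeded Ptgs2 in every library, with a ratio of levels of 6.78, 5.78 and 3.64 in the NAC libraries and 4.29, 2.29 and 3.31 in the Control libraries. In the deposited coordinates Ptgs2 and Pla2g4a lie 144 kb apart on opposite strands, with 1 unnamed locus between them. Both were highest in NAC 3 among the NAC libraries and in Control 2 among the Control libraries. So were Ptgs1 and Ptges on chromosome 3 and 14.1% of all tested genes, and a link to position was not tested.

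**Figure D2:**
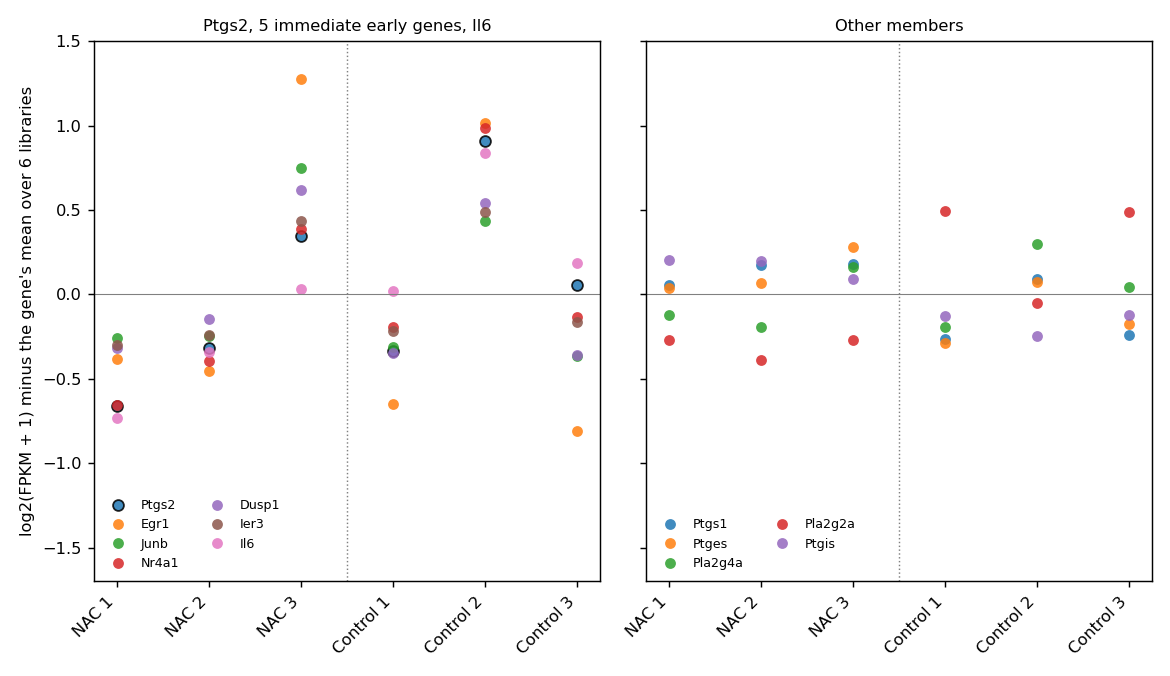
Level of each gene in each library as log2(FPKM + 1) minus its own mean over the 6 libraries, NAC libraries left and Control libraries right of the dotted line. The left panel holds Ptgs2 (outlined), Il6 and the immediate early genes Egr1, Junb, Nr4a1, Dusp1 and Ier3. All are highest in NAC 3 among the NAC libraries and in Control 2 among the Control libraries. These early genes were chosen with their values known, and 17 of the 22 tested had this pattern. In the right panel Pla2g2a is high in Control 1 and Control 3.

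The libraries in which Ptgs2 was high were also those in which immediate early genes were high. These genes are transcribed within minutes of a stimulus such as serum, stretch or handling. Of 22 tested immediate early genes, NAC 3 was the highest NAC library in 19, Control 2 was the highest Control library in 19, and both held in 17, whereas both held in 14.1% of all tested genes. Among the members both held in 4 of 9, which were Ptgs1, Ptgs2, Ptges and Pla2g4a. The genes named in the next sentences were chosen after their values were seen. Egr1, a zinc finger factor, measured 48.1, 45.7 and 154 FPKM in the NAC libraries and 39.9, 128 and 35.5 FPKM in the Control libraries. Nr4a1, an orphan nuclear receptor, measured 57.3, 69.0 and 119.7 FPKM in the NAC libraries and 79.6, 181 and 82.9 FPKM in the Control libraries. Il6, a cytokine induced together with Ptgs2 in many cells, measured 90.4, 118.7 and 154 FPKM in the NAC libraries and 153, 270.0 and 172 FPKM in the Control libraries, with a log2 fold change of -0.70 ± 0.256 (limma adjusted p = 0.145). The list summed to 2456 to 3404 FPKM with NAC and 2429 to 3542 FPKM in Control. Over the whole list 1 gene was called higher (Fosl1) and 1 lower (Nr4a2), calls missed in 8 and 6 of 17 alternatives (leave-one-out adjusted p up to 0.104 and 0.0691). The most abundant, Ctgf and Cyr61, were not called. The part of the state of the cultures at harvest in the Ptgs2 values was not tested.

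Of the 3 prostaglandin E synthases none passed the test as deposited, and they differed in how steady they were. Ptges (ENSRNOG00000006320; chromosome 3, 9727408 to 9738752, minus strand) encodes the microsomal, inducible synthase that works with the inducible cyclooxygenase. It measured 81.0, 82.6 and 95.8 FPKM in the NAC libraries, against 64.2, 83.1 and 69.6 FPKM in the Control libraries. Control 2 lay within the NAC range and the other Control libraries below it. The log2 fold change was 0.26 ± 0.106 (limma adjusted p = 0.177), and 0.36 without Control 2 (adjusted p = 0.0521). Ptges2 (ENSRNOG00000014050; chromosome 3, 11424099 to 11431402, plus strand), a second membrane-associated synthase, measured 10.2, 10.2 and 11.7 FPKM in the NAC libraries, against 12.6, 12.4 and 11.5 FPKM in the Control libraries. NAC 3 lay just above Control 3 and the log2 fold change was -0.17 ± 0.0691 (limma adjusted p = 0.179).

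Ptges3 (ENSRNOG00000002642; chromosome 7, 2479311 to 2497013, plus strand), the cytosolic synthase that is also the Hsp90 co-chaperone p23, was the steadiest member. It measured 78.5, 77.0 and 74.6 FPKM in the NAC libraries, against 75.6, 72.9 and 73.5 FPKM in the Control libraries, and the groups overlapped. The log2 fold change was 0.051 ± 0.0367 (limma adjusted p = 0.432). Scaled to library totals, Ptges3 and Ptges2 were called lower (-0.12 and -0.33), which relative to the shifted median of all genes was 0.037 and -0.17, and 3.67% of all tested genes were then called higher and 29.2% lower. Pla2g2a was the other member called lower there (-0.79). The level of Ptges over that of Ptges3 was 1.03, 1.07 and 1.28 in the NAC libraries and from 0.85 to 1.14 in the Control libraries, so the inducible and the cytosolic synthase were read at about equal levels.

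Ptgis (ENSRNOG00000008245; chromosome 3, 163950777 to 163986059, minus strand), the prostacyclin synthase, was the member called higher. It measured 8.77, 8.73 and 8.05 FPKM in the NAC libraries, against 6.77, 6.16 and 6.79 FPKM in the Control libraries. All NAC libraries lay above all Control libraries, and neither NAC 3 nor Control 2 was high. The mean was 8.52 ± 0.402 FPKM with NAC and 6.58 ± 0.357 FPKM in Control (SD, n = 3 each), a ratio of 1.30, and the log2 fold change was 0.33 ± 0.0648 (SE, limma adjusted p = 0.0292). The call depended on all 6 libraries and was missed whichever single one was dropped (0.29 to 0.37, adjusted p from 0.0502 to 0.106), with the replicate number as a block (adjusted p = 0.0802), with no filter (adjusted p = 0.0555) and with library totals (0.17, adjusted p = 0.0843; 0.33 relative to the shifted median). The level of Ptges was 9.23 to 13.5 times that of Ptgis in the 6 libraries. The 5 tested genes whose centred values over the 6 libraries lay nearest to those of Ptgis were Prkar2b, Os9, Man2a2, Stc2 and Tln2, with root mean square differences of 0.022 to 0.031 on the log2 scale. All 5 were called higher with NAC, as a gene this near to Ptgis would be.

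Prostaglandin D synthase was not read. Ptgds (ENSRNOG00000015550; chromosome 3, 2686123 to 2689084, minus strand), the lipocalin-type synthase of brain and male genital tract, had 0 reads in each of the 6 libraries, which allows a level of up to 0.260 to 0.303 FPKM per library (3 reads; counting error only). Hpgds, the hematopoietic prostaglandin D synthase, was at 0 as well, and the D receptor Ptgdr was listed at 0 in all libraries.

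Hpgd (ENSRNOG00000010610; chromosome 16, 37457135 to 37495758, minus strand), the hydroxyprostaglandin dehydrogenase that begins the inactivation of prostaglandins E and F, was the lowest member that was expressed. It measured 2.46, 2.15 and 2.79 FPKM in the NAC libraries, against 2.86, 2.62 and 2.92 FPKM in the Control libraries. The groups overlapped, and the log2 fold change was -0.14 ± 0.103 (limma adjusted p = 0.449). The level of Ptgs1 was 101 to 131 times that of Hpgd in the NAC libraries and 72.0 to 101 times in the Control libraries, with Control 2 at the upper end of the Control range.

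**Figure D3:**
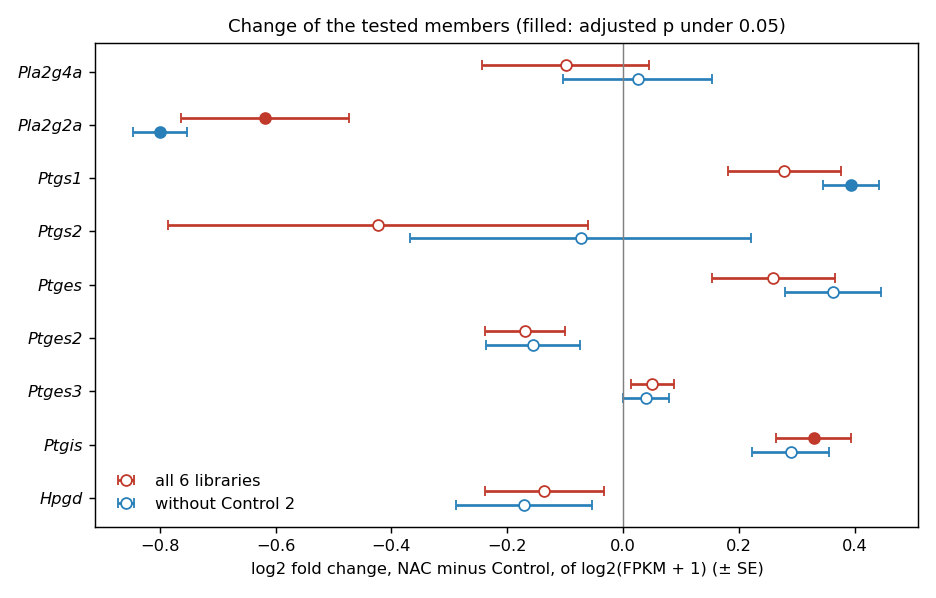
Log2 fold change (NAC minus Control, of log2(FPKM + 1)) with its standard error for the 9 tested members, with all 6 libraries (red) and without Control 2 (blue); filled points have an adjusted p under 0.05. Without Control 2, Pla2g2a moves to -0.80 and Ptgs1 to 0.39, and Ptgs2 moves to -0.073. Control 2 was singled out with these values known.

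The other genes of the pathway, 7 lists with 121 genes found and 75 tested, gave 6 called higher and 4 lower, against 6.08% and 2.72% of all tested genes. Their median log2 fold change was 0.026. Without Control 2 the counts were 8 and 6, against 6.75% and 2.73% of all tested genes. Among other phospholipases and enzymes of arachidonate release, 1 of 14 tested was higher, 1 lower and 12 were not called (median 0.065). Mgll, the monoacylglycerol lipase that frees arachidonic acid from an endocannabinoid, rose to 4.24 ± 0.245 FPKM with NAC, against 1.78 ± 0.338 FPKM in Control (SD, n = 3 each; log2 fold change 0.92 ± 0.115, limma adjusted p = 0.00662). The lower gene was Pla2g5, described above. Anxa1, an inhibitor of phospholipase A2, averaged 246 ± 5.92 FPKM with NAC and 220.4 ± 23.0 FPKM in Control, and Pla2g7, which cleaves platelet-activating factor, 38.7 ± 1.22 and 31.7 ± 8.51 FPKM. Both were not called with all libraries, and both were called higher without Control 2 (0.25 and 0.51), which read 246.7 and 41.5 FPKM, close to the NAC libraries.

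None of 11 tested genes of arachidonate supply and reacylation was called (median 0.069). Elovl5, an elongase of polyunsaturated fatty acids, averaged 75.4 ± 3.71 FPKM with NAC and 66.7 ± 3.99 FPKM in Control, and Lpcat3, which places arachidonate into phospholipids, 34.9 ± 0.982 and 34.3 ± 2.38 FPKM. None of 5 other prostanoid synthases was called (median 0.026). The aldo-keto reductase Akr1b1, a prostaglandin F synthase, averaged 88.1 ± 3.42 FPKM with NAC and 86.5 ± 4.30 FPKM in Control, and its relative Akr1b8 63.8 ± 3.67 and 69.2 ± 9.84 FPKM. Thromboxane synthase, Tbxas1, was near 0, at 0.0635 FPKM with NAC and 0.0524 FPKM in Control.

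In the list of breakdown and transport 1 of 7 was higher and none lower (median -0.12). Slco4a1, an organic anion transporter, rose to 20.3 ± 0.457 FPKM with NAC, against 9.74 ± 1.81 FPKM in Control (log2 fold change 1.00 ± 0.114, limma adjusted p = 0.00444). Ptgr1, a reductase that follows Hpgd in inactivation, averaged 34.1 ± 1.15 FPKM with NAC and 37.5 ± 1.74 FPKM in Control and was not called. The prostaglandin transporter Slco2a1 averaged 2.88 ± 0.170 and 3.75 ± 0.678 FPKM (limma adjusted p = 0.193).

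Among 6 tested receptor genes 1 was higher and none lower (median 0.10). It was Ptgfrn, which is no receptor itself but a membrane protein known to lower ligand binding of the prostaglandin F receptor, at 132.5 ± 2.85 FPKM with NAC and 102 ± 1.43 FPKM in Control (log2 fold change 0.37 ± 0.0339, limma adjusted p = 0.00217). Of the receptors proper, Ptgfr, for prostaglandin F, was the most abundant, at 82.9 ± 6.34 FPKM with NAC and 86.3 ± 9.10 FPKM in Control. The prostacyclin receptor Ptgir averaged 37.8 ± 2.29 FPKM with NAC and 35.2 ± 1.37 FPKM in Control, with a log2 fold change of 0.10 (limma adjusted p = 0.307). The prostaglandin E receptor Ptger4 averaged 9.92 ± 0.630 and 8.30 ± 0.717 FPKM (limma adjusted p = 0.112), Ptger1 5.06 ± 0.946 and 5.68 ± 0.827 FPKM, and Ptger2 and Ptger3 averaged 1.03 and 0.304 FPKM with NAC and 0.785 and 0.193 FPKM in Control.

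The lipoxygenase and epoxygenase list had 16 of its 22 found genes under a mean of 1 FPKM, with Alox5 listed at 0. Of the 6 tested, 1 was higher and 2 lower (median 0.049). Dpep1, a dipeptidase that trims a leukotriene, rose to 129 ± 3.45 FPKM with NAC, against 78.5 ± 0.555 FPKM in Control (log2 fold change 0.71 ± 0.0347, limma adjusted p = 3.30e-04). Ephx1, an epoxide hydrolase, fell to 5.95 ± 0.324 FPKM, against 8.46 ± 0.690 FPKM in Control (limma adjusted p = 0.0182), which missed the threshold on dropping Control 1, NAC 1 or NAC 2 (-0.44 to -0.39) and with the replicate block. Cyp1b1, a cytochrome P450 that can oxidize arachidonic acid, fell to 42.9 ± 5.89 FPKM, against 66.5 ± 10.96 FPKM in Control (limma adjusted p = 0.0407), which missed the threshold on dropping Control 1, Control 3, NAC 1 or NAC 2 (-0.63 to -0.49), with no filter (adjusted p = 0.0818), with robust estimation (0.0536) and without a trend (0.0695).

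Of 26 tested regulators of Ptgs2 and Ptges 2 were higher and 1 lower (median -0.091). Il1rn, the antagonist of the interleukin-1 receptor, rose to 193 ± 5.41 FPKM with NAC, against 130.1 ± 9.52 FPKM in Control (log2 fold change 0.56 ± 0.057, limma adjusted p = 0.00302). Mapkapk2, a kinase that steadies cytokine messages, averaged 98.5 ± 2.56 FPKM with NAC and 83.3 ± 3.54 FPKM in Control (0.24, limma adjusted p = 0.0228), a call missed on dropping any single library other than Control 2 (0.21 to 0.26), with the replicate block, without a trend and with library totals (0.067). Rela, the main activating subunit of NF-kB, fell to 32.4 ± 0.924 FPKM, against 39.7 ± 1.02 FPKM in Control (-0.28, limma adjusted p = 0.0114), which missed the threshold on dropping NAC 1 or NAC 2 (-0.28 and -0.27). The C/EBP factors Cebpb and Cebpd, for which the Ptgs2 window printed above holds a matching motif, were abundant and not called. Cebpb averaged 401 ± 27.3 FPKM with NAC and 355 ± 34.9 FPKM in Control, and Cebpd 438 ± 5.19 and 472 ± 26.0 FPKM.

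**Figure D4:**
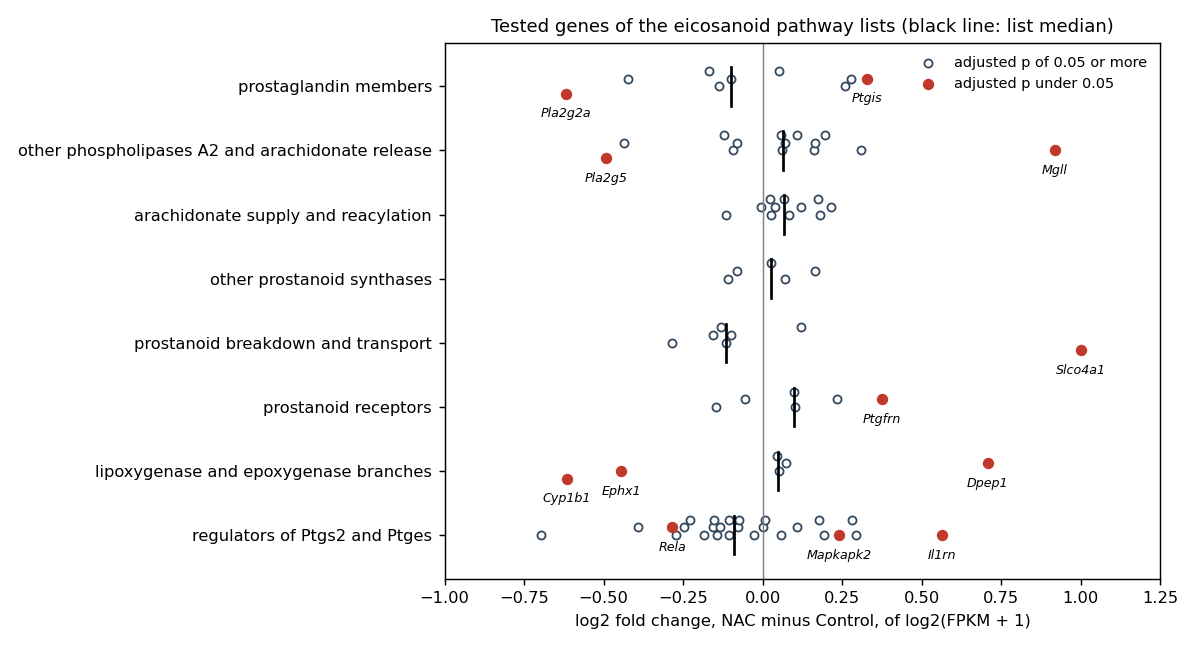
Log2 fold change (NAC minus Control, of log2(FPKM + 1)) of every tested gene in the 10-gene set and in 7 further lists of the pathway; filled red points have an adjusted p under 0.05 and are named, and the black line is the list median. Called genes lie on both sides of 0 and the list medians lie between -0.12 and 0.10.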

How the data were processed

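Per the labels' protocols, RNeasy columns gave the RNA and a SMARTer mRNA-Seq kit the libraries. The authors deposited 1 table of FPKM values for 33300 genes (32545 rat Ensembl identifiers and 755 unannotated loci). The identifiers are rat, although the builds named per the submitters' processing notes are those of mouse (GRCm38, mm10). No source used here states the aligner, counter or strand setting, so a gene and its antisense partner cannot be told apart. Columns N1 to N3 were assigned to Control by elimination.

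FPKM times gene length gave a whole number of reads within 0.01 for 100% of values, 12487215 to 14941949 per library; intervals and floors (3 reads) cover counting error only. The authors' total over that sum was 0.916 ± 0.00812 in NAC and 1.03 ± 0.0122 in Control (SD, n = 3). The two-sided test was that of limma 3.58.1 (R 4.3.3), with a mean-variance trend in eBayes and no covariate, fitted to log2(FPKM + 1) for the 12733 genes with a mean of at least 1 FPKM, after testing on simulated data. No replicate pair agreed within sampling noise (chi-square over its degrees of freedom 3.66 to 9.53, highest for Control 2 with each other Control library). Figures used Python 3.11.15, pandas 2.3.3, numpy 2.4.6 and matplotlib 3.10.9.

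The members and lists were chosen with earlier results of these data known. All members were named, and from each other list up to 6 called genes with the lowest adjusted p and the 2 most abundant; older names in a RefSeq table found 4 entries. Neighbouring phospholipases, receptors, transporters, genes near 0 and tendon markers given beside these were named after their values were seen. The 5 genes nearest to the member with the lowest adjusted p were named by the root mean square difference of centred log2 values. Promoter windows came from RefSeq (GRCr8), a build other than that of the table. Alternatives were a pseudocount of 0.1, no filter or a mean of at least 5 FPKM, library totals, median of ratios, quantile normalization, no trend, robust estimation, the replicate block, voom on the recovered reads, a threshold of 0.01, and leaving out each library.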

Additional observations from a re-analysis of the deposited data

How the results depend on the processing

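Calls depended on which library was left out, and the fit without Control 2 made more of them than the fit with all 6. Leaving out 1 library gave 264 to 859 genes higher and 51 to 347 lower with NAC (774 and 346 with all 6), 0 to 1 member higher and 0 to 1 lower, and 5 to 8 genes of the pathway lists higher and 0 to 6 lower. Library totals gave 467 genes higher and 3723 lower (11.1% of calls higher, against 69.1% as deposited, and 58.2% with quantile normalization). There 0 members were higher and 3 lower, and 5 pathway genes were higher and 26 lower. A threshold of 0.01 gave 238 and 32 genes, 0 and 0 members and 5 and 0 pathway genes. No filter gave 549 genes higher and 207 lower and 0 and 0 members. Without a trend 549 genes were higher and 206 lower, with 1 member higher and 0 lower. Robust estimation gave 798 genes higher and 353 lower, also with 1 member higher and 0 lower. Voom gave 1035 genes higher and 529 lower, with 1 member in each direction. The cause of these differences was not tested.

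Same-numbered NAC and Control libraries did not deviate together (correlations of 0.063, 0.059 and -0.050), so the numbers were not treated as pairs. The replicate block gave 466 genes higher and 110 lower and 0 members higher; Pla2g2a was called in it (adjusted p = 0.0436).

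Signs turned only for values that were not called as deposited. With library totals Ptges3 was -0.12, Anxa1 -0.0089, Lpcat3 -0.14, Akr1b1 -0.15, Cyr61 -0.13, Cd14 -0.054, Pdgfrb -0.14 and Acta1 -0.10. With quantile normalization Akr1b1 was -0.035, Cebpb -0.015, Cyr61 -0.18 and Pdgfrb -0.068. Over the fits that left out 1 library each, Pla2g4a ran from -0.22 to 0.025, Lpcat3 from -0.017 to 0.079, Akr1b1 from -0.0089 to 0.062, Akr1b8 from -0.19 to 0.0018, Ptgfr from -0.14 to 0.015, Cyr61 from -0.11 to 0.29, Lyz2 from -0.22 to 0.042, Pdgfrb from -0.010 to 0.099, Acta1 from -0.063 to 0.14 and S100b from -0.083 to 0.032. Among the members that were read, depth limits Hpgd most, with 49 to 72 reads per library.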
